A study of Homo sapiens with 8 samples.

Results

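Molecular chaperones bind unfolded or partly folded proteins and use ATP, or partner proteins, to keep them soluble and let them fold. HSP70 family proteins are loaded with client proteins by J-domain proteins (the HSP40 family) and emptied by nucleotide exchange factors such as the BAG and HSP110 proteins, HSP90 receives kinases and steroid receptors from cochaperones, and the ring-shaped chaperonins fold proteins inside a cavity. HSF1, the main heat shock transcription factor, is held inactive by chaperones and, on proteotoxic stress, binds heat shock elements in the promoters of inducible chaperone genes. IER5, a relative of IER5L, is known to bind HSF1 together with the phosphatase PP2A, and both proteins contact B55 subunits of PP2A.

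The 48 genes described here are this folding machinery, listed by name with earlier results of these data known: HSP90 and its cochaperones, the HSP70 and HSP110 families, small heat shock proteins, the mitochondrial and cytosolic chaperonins, J-domain proteins, BAG proteins with the ubiquitin ligase CHIP (gene STUB1), and the factors HSF1 and HSF2. All 48 were among the 58051 genes of the deposited table. Their RNA was measured by RNA-seq in PC3 cells, an established human prostate cancer line, in 4 samples transduced with a lentiviral control hairpin (shScramble) and 4 transduced with a hairpin against IER5L (shIER5L, named sh2 IER5L in the study's methods). Both conditions thus carried a lentiviral vector and its selection, and the silenced condition rests on 1 hairpin in 1 cell line. The labels call the 4 samples of a condition biological replicates, and the methods describe separate plates, so that the p-values measure the spread between cultures of the same cells. In bulk RNA a change in every cell cannot be told apart from a change in some of the cells.

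Total counts ran from 21512128 to 24662190 per sample, and the 48 genes together took 2.42% to 2.59% of them. The epithelial keratins KRT18 and KRT19 were at 382 to 560 CPM (counts scaled by library size) in all samples, and the prostate antigen KLK3 had no count, as known for PC3. The 13 stromal, immune and endothelial markers summed to 15.6 to 17.8 CPM in all 8 samples, with CD3E at 0 and ranges that overlapped between the conditions. IER5L itself measured 3.91, 6.51, 5.62 and 3.23 CPM in the shScramble samples and 2.73, 3.02, 2.04 and 1.32 CPM in the shIER5L samples, a fall of 1.08 on the log2 scale (SE 0.248, edgeR quasi-likelihood test, adjusted p = 0.0212). Its level was low, and the adjusted p rose to as much as 0.0937 with 1 sample left out. The relatives IER5 (34.7 against 33.7 CPM, adjusted p = 0.833) and IER2 (68.5 against 63.4 CPM, adjusted p = 0.388) did not pass the test.

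The letters of the hairpin are shown beside stretches of the 3′ untranslated regions (3′ UTRs) of the members that changed, because they share a short run of bases. The sh2 IER5L hairpin targets the coding sequence of IER5L on hg38 chromosome 9, bases 129176988 to 129177008, minus strand. The lines below give the hairpin and, from GENCODE 44 transcripts on the same build, stretches of the 3′ UTRs of PTGES3 (chromosome 12, minus strand, bases 56664166 to 56664193 and 56663827 to 56663853) and of HSPA4L (chromosome 4, plus strand, bases 127833372 to 127833398). Capitals mark the letters of the hairpin piece ACATCTCA that are present.
sh2 IER5L hairpin: gacgcgtccaACATCTCAaac
PTGES3 3′ UTR, first stretch: ataaataaaaACATCTCAcctaagtctc
PTGES3 3′ UTR, second stretch: ttaagcttttACATCTCttagcatgga
HSPA4L 3′ UTR: caaattagtcCATCTCAttgatgtacc
The heptamers CATCTCA and ACATCTC were searched on the transcript strand in the longest annotated 3′ UTR of each gene. They overlap each other by 6 bases, and they were chosen because an earlier look at these data had tied them to lower expression. At least 1 of them was in 12 of the 46 members tested (26.1%), against 24.0% of 12701 genes tested with such a 3′ UTR. Of those 12 members, 6 had positive and 6 negative log2 fold changes, with a median of 0.00061. PTGES3 was the member with the lowest value and held all 8 letters, while HSPA4L, with the highest value, held CATCTCA at 3 places in a 3′ UTR of 7859 bases. The heptamer TCTCAAA, the letters that pair with positions 2 to 8 of a guide that starts as listed, was in 21.7% of the members and 28.4% of all these genes, with none in PTGES3 and 4 copies in HSPA4L, the most of any member. A match is a run of letters only, and its part in the level of PTGES3 was not tested.

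Across the folding machinery, 46 of the 48 genes had counts enough to be tested, and 44 of the 46 did not pass an adjusted p under 0.05. The exceptions were PTGES3, which fell, and HSPA4L, which rose. At this threshold 3.93% of the 16959 genes tested were called, 2.46% higher and 1.46% lower, so 2 of 46 members (4.35%), 1 in each direction, is close to the background. PTGES3 was the only member that also passed the study's fold threshold for a differentially expressed gene (DEG, 0.5 or more in size on the log2 scale), a rule met by 0.79% of all genes, and by 0.366% in the lower direction. The median log2 fold change of the members was 0.017 against 0.0021 for all genes, and the members lay closer to 0, with a median absolute log2 fold change of 0.051 against 0.112 for all genes. Their standard errors were smaller as well, with a median of 0.046 against 0.109, and their median level was 259.2 CPM against 13.05 CPM.

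**Figure D1:**
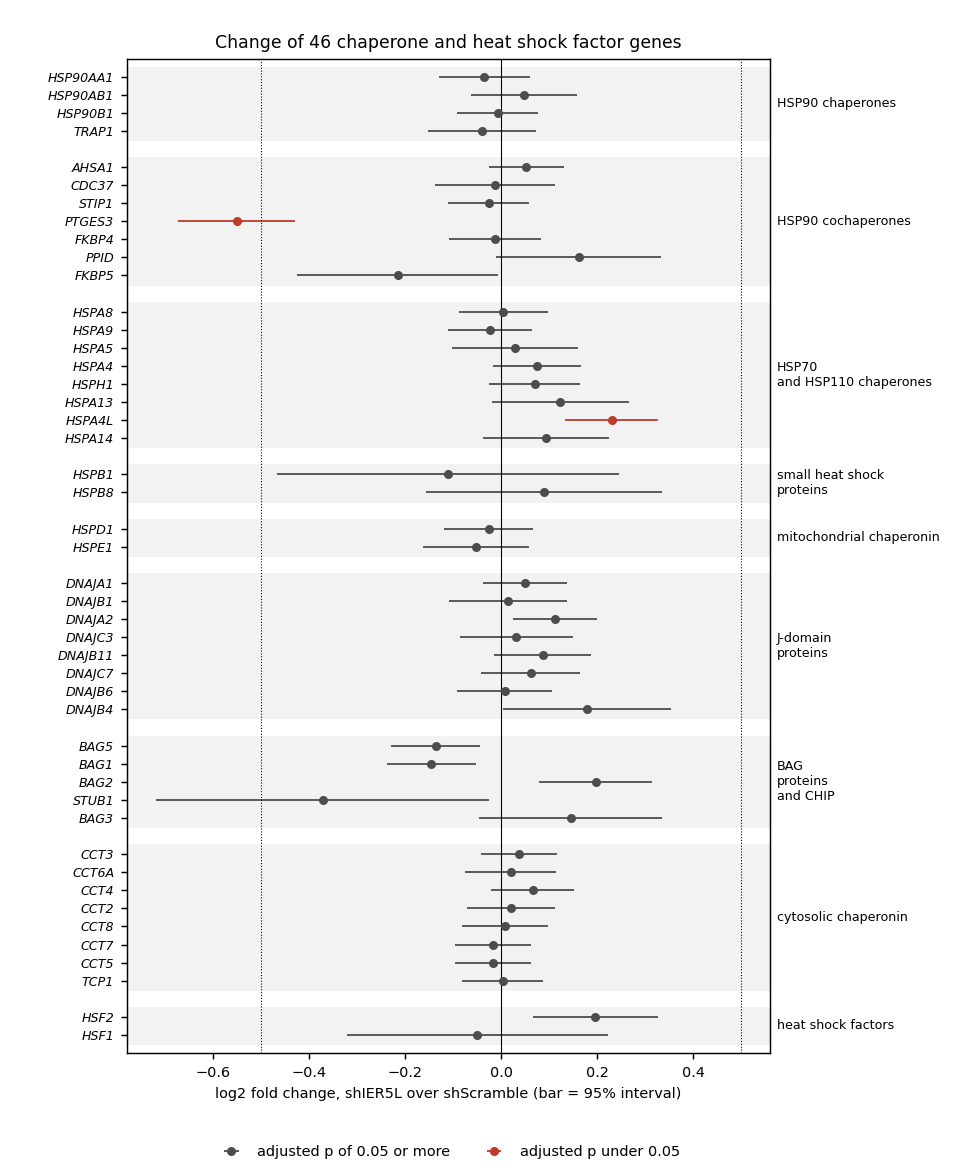
Log2 fold change of shIER5L over shScramble (x axis) for the 46 members tested, by role and, within a role, by level per length; bars are 95% intervals and dotted lines stand at the DEG threshold of 0.5. PTGES3 at -0.55 and HSPA4L at 0.23 are the red points; most other intervals include 0.

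At an unadjusted p under 0.05 there were 10 members (21.7%), 5 higher and 5 lower, against 16.5% of all genes (9.69% higher and 6.78% lower). In 7 members (15.2%) the 4 shIER5L samples did not overlap the 4 shScramble samples, against 10.9% of all genes. These were HSPA4L, BAG2, HSF2 and DNAJA2, higher after silencing (6.33% of all genes), and PTGES3, BAG1 and BAG5, lower (4.61% of all genes). Over all 46 members, 28 had a positive log2 fold change (60.9%), against 50.6% of all genes, and 23 to 30 did over the alternatives, with 23 under upper quartile scaling.

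Among the cochaperones of HSP90, PTGES3 (p23, which binds the closed, ATP-loaded form of HSP90 and slows its ATP hydrolysis) was the member that moved most. The gene spans bases 56663341 to 56688408 of hg38 chromosome 12, minus strand, shares no exon base with another gene, and had 0.524% of its exonic 100-base stretches repeated elsewhere on the primary chromosomes. It measured 199, 186, 185 and 204 CPM in the shScramble samples and 134, 118, 131 and 144 CPM in the shIER5L samples. The highest shIER5L sample lay below the lowest shScramble sample by more than the full range within either condition. PTGES3 fell by 0.55 on the log2 scale (SE 0.058, 95% interval -0.67 to -0.43, adjusted p = 3.95e-05), from 193 ± 9.79 to 132 ± 10.5 CPM (SD, n = 4). The fall was between -0.60 and -0.50 with any 1 sample left out.

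No other HSP90 cochaperone passed the test, in either direction. FKBP5, an immunophilin cochaperone of steroid receptors and a known glucocorticoid target, was the lowest of all tested members per length, at 1.19 ± 0.112 RPKM (reads scaled for library size and exon length, SD, n = 4) in shScramble cells. It measured 14.1, 12.5, 11.2 and 12.8 CPM in shScramble and 11.6, 10.2, 11.2 and 10.5 CPM in shIER5L samples. The conditions overlapped, with a log2 fold change of -0.22 (SE 0.098, adjusted p = 0.284). AHSA1, which speeds up the ATPase of HSP90, was the highest of the cochaperones at 213 ± 4.81 RPKM (SD, n = 4). It measured 648, 614, 625 and 623 CPM in shScramble and 674, 642, 646 and 641 CPM in shIER5L samples, which overlapped. Its log2 fold change was 0.05 (SE 0.037, adjusted p = 0.537). The kinase-loading cochaperone CDC37, the HSP70 to HSP90 adaptor STIP1 and the immunophilin FKBP4 had log2 fold changes of -0.01, -0.03 and -0.01. The cyclophilin PPID measured 24.0 ± 1.98 and 26.8 ± 1.90 CPM, with a log2 fold change of 0.16 (adjusted p = 0.343).

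The HSP90 proteins that these cochaperones serve showed log2 fold changes within 0.05 of 0. HSP90AA1, the stress-inducible cytosolic form, measured 2794, 2560, 2590 and 2774 CPM in shScramble and 2664, 2449, 2779 and 2567 CPM in shIER5L samples, a log2 fold change of -0.04 (SE 0.045, 95% interval -0.13 to 0.06, adjusted p = 0.776). HSP90AB1, the constitutive cytosolic form, measured 1114, 978, 996 and 983 CPM in shScramble and 1022, 982, 1066 and 1137 CPM in shIER5L samples, a log2 fold change of 0.05 (SE 0.052, 95% interval -0.06 to 0.16, adjusted p = 0.725). The conditions overlapped for both genes. Per length HSP90AA1 exceeded HSP90AB1 in every sample, with a mean ratio of 1.497 ± 0.0751 in shScramble and 1.41 ± 0.0934 in shIER5L cells (SD, n = 4, two-sided exact permutation test, p = 0.2, smallest possible p 0.0286). HSP90B1 of the endoplasmic reticulum (ER) measured 578 and 575 CPM. Mitochondrial TRAP1, the lowest of the 4 at 27.7 ± 1.20 RPKM (SD, n = 4), measured 136, 145, 150 and 147 CPM in shScramble and 146, 148, 127 and 142 CPM in shIER5L samples, with a log2 fold change of -0.04 (SE 0.053, adjusted p = 0.788).

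In the HSP70 and HSP110 families HSPA4L rose. Of the 8 genes tested 7 had positive log2 fold changes, but 5 to 8 did over the alternatives, since HSPA8 turned negative with RLE and upper quartile scaling and HSPA5 with some samples left out. HSPA4L encodes an HSP110 type nucleotide exchange factor that is known from testis and is also called osmotic stress protein 94. It spans bases 127781821 to 127840733 of hg38 chromosome 4, plus strand. HSPA4L measured 224, 204, 204 and 213 CPM in the shScramble samples and 239.2, 238.8, 255.7 and 256.3 CPM in the shIER5L samples. Every shIER5L sample was above every shScramble sample. The rise was 0.23 on the log2 scale (SE 0.046, 95% interval 0.13 to 0.33, adjusted p = 0.00882), below the fold threshold for a DEG, and the adjusted p stayed under 0.05 with each sample left out in turn (at most 0.045).

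HSPA8, the constitutive cytosolic HSC70, was the highest member of all per length, at 691 ± 35.9 RPKM in shScramble and 693 RPKM in shIER5L cells. It measured 3602, 3292, 3202 and 3302 CPM in shScramble and 3424, 3197, 3301 and 3521 CPM in shIER5L samples, a log2 fold change of 0.0048 (SE 0.043, 95% interval -0.09 to 0.10, adjusted p = 0.976). HSPA5 (BiP), the HSP70 of the ER and a target of the unfolded protein response, measured 485, 436, 471 and 481 CPM in shScramble and 513, 468, 517 and 412 CPM in shIER5L samples. The last of these was the lowest of all 8, and the log2 fold change was 0.03 (SE 0.062, adjusted p = 0.88). HSPH1, the heat-inducible HSP110, measured 707, 672, 664 and 661 CPM in shScramble and 712, 658, 757 and 713 CPM in shIER5L samples, which overlapped, with a log2 fold change of 0.07 (SE 0.045, adjusted p = 0.481). HSPA14, a ribosome-associated HSP70 and the lowest of the family at 12.7 ± 0.575 RPKM (SD, n = 4), measured 56.2, 53.6, 51.5 and 56.9 CPM in shScramble and 56.2, 54.2, 63.4 and 58.8 CPM in shIER5L samples. Its log2 fold change was 0.09 (SE 0.062, adjusted p = 0.504). HSPA4, HSPA9 (mitochondrial mortalin) and HSPA13 had log2 fold changes of 0.07, -0.02 and 0.12.

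The classical heat-inducible HSP70 genes HSPA1A and HSPA1B were almost without counts. HSPA1A had 2, 0, 2 and 2 counts in the shScramble samples and 6, 2, 0 and 2 in the shIER5L samples, and HSPA1B had 0 counts in all 8, where 3 counts correspond to 0.122 to 0.140 CPM. No fold change is given for them. The genes lie near each other in the major histocompatibility region of hg38 chromosome 6 (bases 31815464 to 31817946 and 31827735 to 31830255) and are near-identical copies. On the primary chromosomes 69.9% and 68.8% of their exonic 100-base stretches were repeated, and with the alternate contigs of hg38 included all were. Among other genes of the region that are also on alternate contigs, DDX39B (0 to 4 counts), HSPA1L (0 to 4), CSNK2B (1 to 22) and DAXX (10 to 25) were low too. BAG6 held 119 to 181 counts, PFDN6 906 to 1138 and VARS1 1674 to 2396. Whether the genome used for alignment held the alternate contigs is not given in the sources used here, and the part of repeated sequence in these low counts was not tested. The other 46 members had at most 7.97% of their stretches repeated (HSPD1).

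All 8 J-domain genes had positive log2 fold changes, from 0.0073 for DNAJB6 to 0.18 for DNAJB4 (50.6% of all genes were positive), and none passed the test. The count of positive values was 6 to 8 over the alternatives: DNAJB1 and DNAJB6 turned negative with upper quartile scaling, DNAJB6 also with RLE scaling, and DNAJC3 with the GC trend removed. DNAJA2, a general HSP70 partner that spans bases 46955362 to 46973788 of chromosome 16, measured 285, 268, 278 and 281 CPM in shScramble and 297, 287, 311 and 307 CPM in shIER5L samples. The conditions did not overlap, although the gap between them was smaller than the range within either, and the log2 fold change was 0.11 (SE 0.041, adjusted p = 0.164). DNAJB4, an HSP40 also called HLJ1 and the lowest of the group at 7.96 ± 0.527 RPKM (SD, n = 4), measured 32.8, 27.9, 29.7 and 30.1 CPM in shScramble and 33.6, 29.1, 36.5 and 37.0 CPM in shIER5L samples. These overlapped, and the log2 fold change was 0.18 (SE 0.083, adjusted p = 0.289). DNAJB1, the main heat-inducible HSP40, measured 402, 389, 377 and 343.5 CPM in shScramble and 412, 399, 370 and 345 CPM in shIER5L samples, a log2 fold change of 0.01 (SE 0.058, 95% interval -0.11 to 0.14, adjusted p = 0.947). DNAJA1, a farnesylated partner of HSC70 and the highest of the group at 362 ± 12.8 RPKM (SD, n = 4), measured 1037, 957, 971 and 983 CPM in shScramble and 1036, 960, 1050 and 1039 CPM in shIER5L samples, a log2 fold change of 0.05 (SE 0.041, adjusted p = 0.618). The ER proteins DNAJB11 and DNAJC3 and the cytosolic DNAJC7 had log2 fold changes of 0.09, 0.03 and 0.06.

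The BAG proteins and CHIP, which release or redirect HSP70 clients, held 4 of the 10 members at an unadjusted p under 0.05. These were 4 of the 5 genes of the group, against 16.5% of all genes, in both directions, and none passed after adjustment. The members were listed with earlier results of these data known, so this count describes the group only. BAG2, an inhibitor of CHIP, measured 69.5, 68.7, 66.95 and 66.86 CPM in shScramble and 74.7, 73.3, 79.05 and 84.7 CPM in shIER5L samples. The conditions did not overlap (log2 fold change 0.20, SE 0.055, adjusted p = 0.0601). BAG2 lies on chromosome 6, bases 57172326 to 57189833, and shares 2842 exon bases with RAB23 on the opposite strand. Counts made without strand cannot assign reads within these bases to 1 of the genes, and the part of these bases in the BAG2 count was not tested. BAG1, which ties HSP70 to the proteasome (chromosome 9, bases 33247820 to 33264761), measured 125, 124, 121 and 124 CPM in shScramble and 115, 110, 114 and 109 CPM in shIER5L samples, again without overlap (log2 fold change -0.15, SE 0.043, adjusted p = 0.0792). BAG5, a multi-domain member of the family (chromosome 14, bases 103556544 to 103562831), was the highest at 32.04 ± 1.02 RPKM (SD, n = 4). It measured 175, 164, 165 and 172 CPM in shScramble and 154, 147, 159 and 154 CPM in shIER5L samples, also without overlap (log2 fold change -0.14, SE 0.044, adjusted p = 0.105).

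BAG3, the stress-inducible partner of HSPB8 in selective autophagy, was the lowest of the group at 6.58 ± 0.395 RPKM (SD, n = 4). It measured 17.2, 17.9, 17.6 and 19.6 CPM in shScramble and 21.7, 20.5, 17.1 and 20.6 CPM in shIER5L samples. 1 shIER5L sample lay below all shScramble samples, and the log2 fold change was 0.14 (SE 0.090, adjusted p = 0.468). STUB1, which encodes CHIP, the ubiquitin ligase that marks chaperone clients, had the second most negative log2 fold change of the members. It measured 17.9, 22.5, 22.9 and 16.7 CPM in shScramble and 18.2, 20.1, 12.98 and 10.6 CPM in shIER5L samples. The spread within each condition was wide and the conditions overlapped (log2 fold change -0.37, SE 0.164, 95% interval -0.72 to -0.02, adjusted p = 0.263). STUB1 shares 983 exon bases with JMJD8 on the opposite strand.

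**Figure D2:**
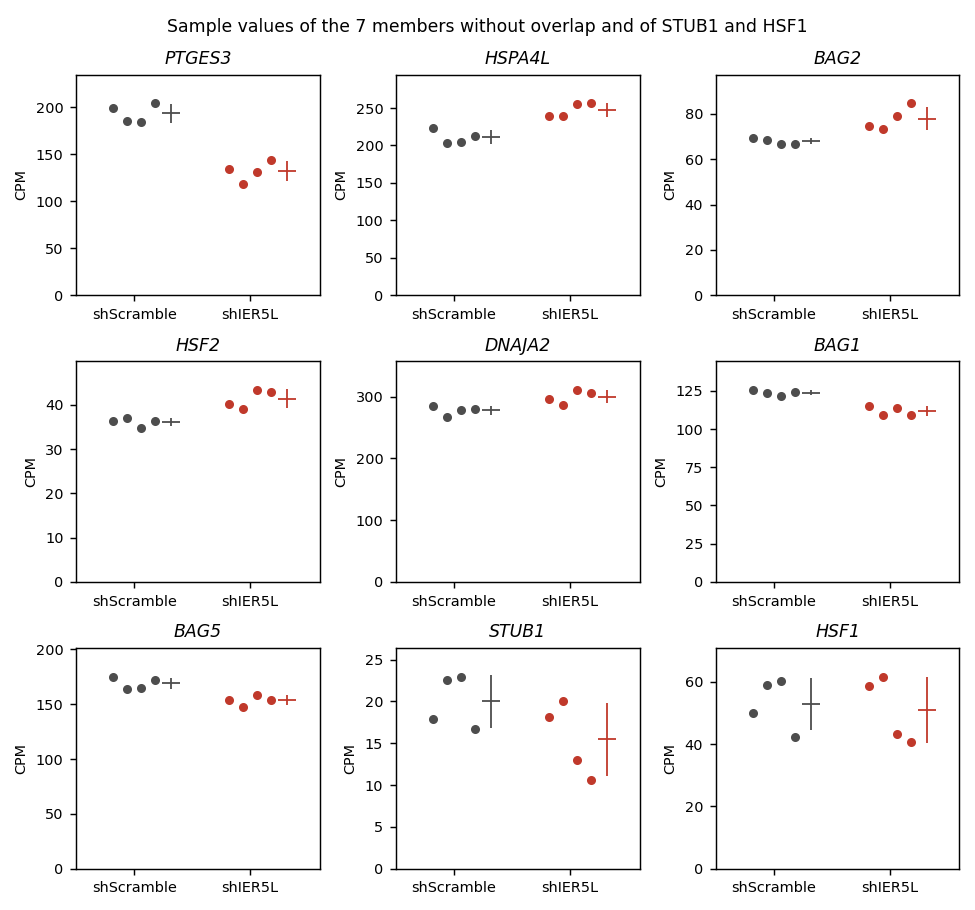
CPM in each sample (points, y axes from 0) for the 7 members whose conditions did not overlap and for STUB1 and HSF1; the bars at the side give mean and SD of 4 samples. PTGES3 drops from 193 to 132 CPM, while the 4 samples of STUB1 and HSF1 within a condition spread from 10.6 to 20.1 and from 40.7 to 61.6 CPM in shIER5L cells.

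The heat shock factors themselves had similar levels per length, 9.96 ± 1.58 RPKM for HSF1 and 13.4 ± 0.365 RPKM for HSF2 in shScramble cells (SD, n = 4). Their mean counts there were 52.9 and 36.1 CPM. These lay below the members' median of 259.2 CPM and above the median of all genes tested, 13.05 CPM. HSF1 measured 49.9, 58.9, 60.3 and 42.4 CPM in shScramble and 58.8, 61.55, 43.35 and 40.7 CPM in shIER5L samples. In both conditions 2 samples were high and 2 were low. Its log2 fold change was -0.05 (SE 0.128, 95% interval -0.32 to 0.22, adjusted p = 0.903). HSF2, which can pair with HSF1 on heat shock elements and is known from development (chromosome 6, bases 122399546 to 122433119), measured 36.4, 37.0, 34.7 and 36.4 CPM in shScramble and 40.3, 39.1, 43.3 and 43.0 CPM in shIER5L samples. The conditions did not overlap, and the log2 fold change was 0.20 (SE 0.062, 95% interval 0.07 to 0.33, adjusted p = 0.0972).

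The small heat shock proteins, ATP-independent holders of unfolded protein, had low counts beside most members. Their means in shScramble samples were 9.90 CPM for HSPB1 and 12.2 CPM for HSPB8. The median over all samples was 259.2 CPM for the members and 13.05 CPM for all genes tested. HSPB1 has a high GC share (63.2%), and the part of base composition in its counts was not tested. HSPB1 (HSP27) measured 8.30, 11.2, 13.2 and 6.90 CPM in shScramble and 10.5, 9.96, 8.40 and 7.95 CPM in shIER5L samples, with the shIER5L samples inside the shScramble range. Its log2 fold change was -0.11 (SE 0.168, 95% interval -0.47 to 0.25, adjusted p = 0.82), the widest interval among the members tested. HSPB8, at 4.28 ± 0.517 RPKM against 6.06 ± 1.73 RPKM for HSPB1 (SD, n = 4), measured 10.2, 13.4, 13.25 and 12.01 CPM in shScramble and 15.6, 12.9, 11.98 and 11.6 CPM in shIER5L samples. These overlapped, and the log2 fold change was 0.09 (SE 0.116, adjusted p = 0.781).

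No chaperonin gene passed the test. The 8 genes of the cytosolic chaperonin, which folds actin and tubulin in a double ring of 8 different subunits, had log2 fold changes from -0.02 (CCT5) to 0.07 (CCT4), and none was at an unadjusted p under 0.05. Their levels per length ran from 151 ± 4.61 RPKM for TCP1 to 366 ± 11.2 RPKM for CCT3 (SD, n = 4), a ratio of 2.42. This ratio depends on the annotated exon lengths used, 4929 bases for TCP1 and 4018 bases for CCT3. TCP1 measured 777, 742, 727 and 731 CPM in shScramble and 753, 707, 752 and 771 CPM in shIER5L samples (log2 fold change 0.0030, SE 0.040, adjusted p = 0.984). CCT3 measured 1529, 1435, 1435 and 1482 CPM in shScramble and 1523, 1466, 1489 and 1553 CPM in shIER5L samples (log2 fold change 0.04, SE 0.037, adjusted p = 0.699). The conditions overlapped for both. The summed level of the 8 genes was 1816 ± 54.4 RPKM in shScramble and 1839 ± 56.2 RPKM in shIER5L cells (SD, n = 4, two-sided exact permutation test, p = 0.543).

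HSPD1 and HSPE1, the HSP60 ring and its HSP10 lid in the mitochondrion, lie head to head on chromosome 2 and share 281 exon bases on opposite strands. HSPD1 measured 1903, 1819, 1772 and 1824 CPM in shScramble and 1798, 1657, 1824 and 1907 CPM in shIER5L samples, a log2 fold change of -0.03 (SE 0.044, adjusted p = 0.836). HSPE1 measured 228, 210, 210 and 212 CPM in shScramble and 200.5, 193, 208 and 228 CPM in shIER5L samples, a log2 fold change of -0.05 (SE 0.052, adjusted p = 0.697). The conditions overlapped for both, and HSPD1 exceeded HSPE1 per length by a ratio of 3.97 ± 0.0694 in shScramble and 4.04 ± 0.119 in shIER5L cells (SD, n = 4, two-sided exact permutation test, p = 0.343). Over all 48 genes the summed level was 25125 ± 781 CPM in shScramble and 25249 ± 774 CPM in shIER5L cells (SD, n = 4, two-sided exact permutation test, p = 0.8286).

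**Figure D3:**
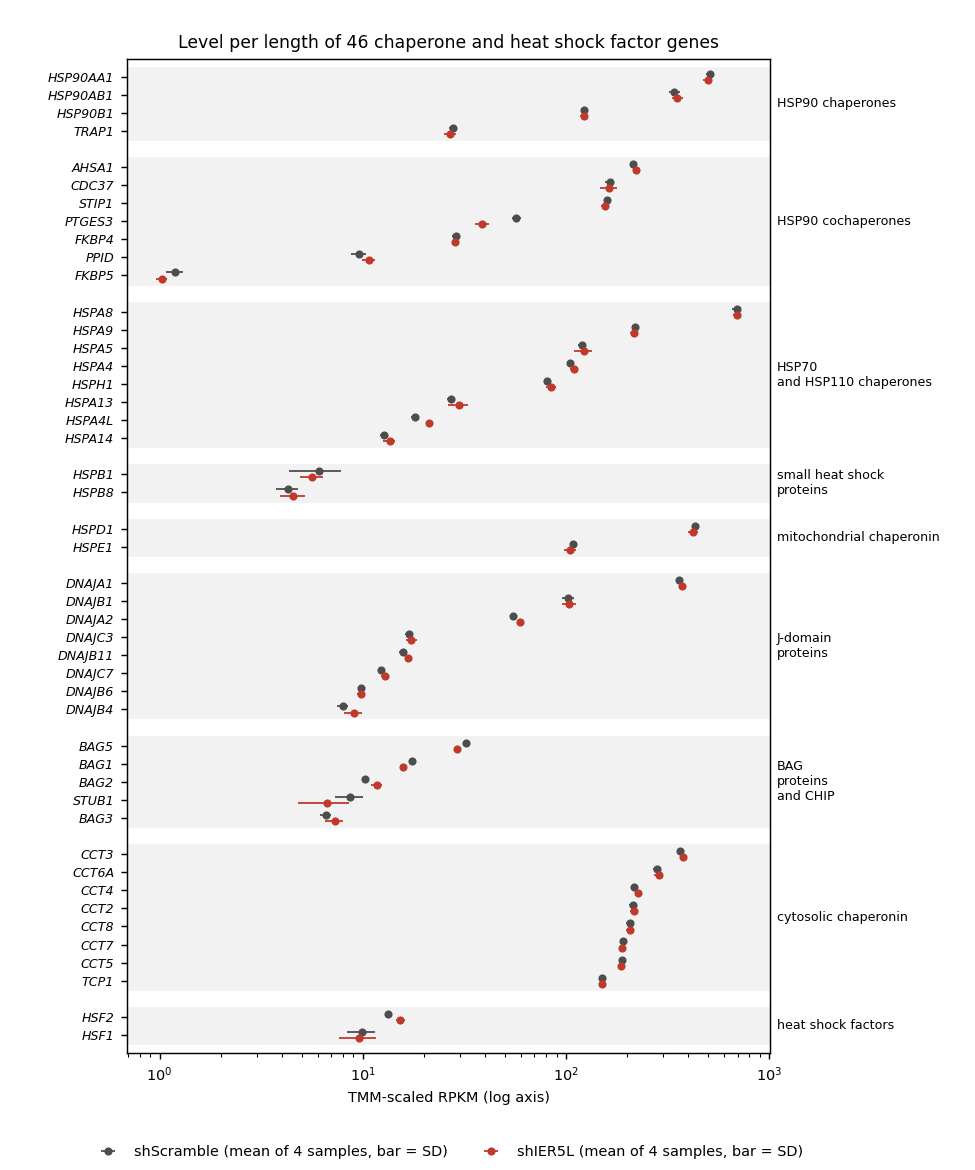
Level per length (TMM-scaled RPKM, log axis) of the 46 members tested, by role; points are means of 4 samples and bars SD. HSPA8 at 691 RPKM and FKBP5 at 1.19 RPKM in shScramble cells mark the ends of the range, and the conditions separate clearly for PTGES3 in the cochaperone block.

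Heat shock elements, the binding sites of HSF1, are built from alternating units of GAA and its complement TTC. RefSeq promoters (GRCh38.p14, 250 bases before to 50 after the start) were at hand for 43 of the 48 members, and both strands were searched for GAANNTTCNNGAA and TTCNNGAANNTTC. Such a run of 3 units was in 3 of the 43 members (6.98%) and in 0.490% of 35116 promoters. The matches are shown with the element in capitals because these are the letters that HSF1 is known to bind.
HSPA8, chr11:123062346-123062374, minus strand: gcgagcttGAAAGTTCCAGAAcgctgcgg
HSPA8, chr11:123062171-123062199, minus strand: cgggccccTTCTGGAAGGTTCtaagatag
DNAJA1, chr9:33025268-33025296, plus strand: gccgggcgGAACTTTCCAGAAcgctcggt
DNAJB6, chr7:157336865-157336893, plus strand: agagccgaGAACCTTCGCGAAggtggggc
The log2 fold changes of these 3 genes ran from 0.0048 to 0.05, with a median of 0.0073, and none passed the test. The 38 tested members with a promoter but without such a run had a median of 0.025. With 2 facing units instead of 3 (GAANNTTC or TTCNNGAA, both of which lie within the longer runs), 11 of the 43 members (25.6%) and 13.5% of all promoters matched. The 9 of these 11 that were tested had log2 fold changes from -0.11 to 0.20, and again none passed. The window ends 250 bases before the start, so elements farther away were not searched. Only exact letters were matched, so elements with a changed letter were not counted. HSPA1A, HSPA1B, HSP90AA1, HSPH1 and DNAJB1, named above as inducible, had no run of 3 units. The search thus does not show that members without a match lack heat shock elements.

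The samples of a condition differed from each other in a way that followed base composition, and several members moved with it. Over the members, the GC share of the exons ran from 36.2% (HSPA13) to 65.6% (STUB1). Each sample's deviation from the mean of all 8 samples was set against the GC share over 16959 genes. Differences between the conditions are therefore part of these deviations. The rank correlation was 0.28 and 0.39 in shScramble replicates 2 and 3 and 0.25 and 0.27 in shIER5L replicates 1 and 2. It was -0.18 and -0.06 in shScramble replicates 1 and 4 and -0.39 and -0.44 in shIER5L replicates 3 and 4. The genes of a sample share its library, and genes are not independent replicates. STUB1, HSF1 and HSPB1, the 3 members with the highest GC share, showed this order: in shScramble cells their highest values were in replicates 2 and 3, and in shIER5L cells in replicates 1 and 2. The 4 members that were higher without overlap had low GC shares, from 37.0% (BAG2) to 41.1% (DNAJA2). The members' median was 44.5%, and the 3 that were lower without overlap had 44.5% (BAG5) to 46.8% (BAG1). The part of base composition in these changes was not tested. In a fit with each sample's GC trend removed, which was added after the data were seen, 5 members passed the test (10.9%, against 8.08% of all genes in that fit): PTGES3 (log2 fold change -0.56), HSPA4L (0.17), BAG1 (-0.15, adjusted p = 0.0122), BAG5 (-0.16, adjusted p = 0.00386) and STUB1 (-0.33, adjusted p = 0.0136). HSF1 stood at 0.0029 in that fit (adjusted p = 0.986) and HSF2 at 0.14 (adjusted p = 0.0963). Over all alternatives the lowest log2 fold changes of BAG2 and DNAJA2 were 0.12 and 0.07. Samples also differed in level over most members: shScramble replicate 1 was the highest of its condition in 33 of 46 members, and shIER5L replicate 2 the lowest in 30 of 46.

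Other genes of protein folding and its stress pathways were read from lists made for comparison. Of 26 genes known to be induced by heat through HSF1, 18 of them members, 23 were tested. HSPA4L rose and none fell, against 2.46% and 1.46% of all genes, and the median log2 fold change was 0.024. Among 59 further chaperones and cochaperones tested, DNAJC12, a J-domain protein that assists aromatic amino acid hydroxylases, rose from 63.1 to 87.1 CPM (log2 fold change 0.46, adjusted p = 0.00024). No other gene of that list passed, where 3.93% of all genes did. None of the 9 prefoldin genes, whose products hand actin and tubulin to the cytosolic chaperonin, passed the test or had an unadjusted p under 0.05, and their log2 fold changes ran from -0.10 for PFDN1 to 0.06 for URI1. None of the 36 proteasome genes passed, and 2 were at an unadjusted p under 0.05, where 16.5% of all genes were. Their log2 fold changes ran from -0.08 for PSMB3 to 0.13 for PSMA1.

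Of 31 tested genes of the ER unfolded protein response, 1 rose and 2 fell, against 2.46% and 1.46% of all genes. ASNS, the asparagine synthetase induced through ATF4, rose from 126.9 to 162.1 CPM (log2 fold change 0.35, adjusted p = 0.000342). EIF2AK3 (PERK), a sensor of ER stress, fell from 48.7 to 37.9 CPM (log2 fold change -0.36, adjusted p = 0.00227), and PDIA6, a protein disulfide isomerase of the ER, fell from 405 to 321 CPM (log2 fold change -0.33, adjusted p = 0.000116). In all 3 genes the conditions did not overlap. At an unadjusted p under 0.05 there were 11 higher (9.69% of all genes were) and 3 lower (6.78%), and the median log2 fold change was 0.08. The list was made with earlier results of these data known, and its members share regulators, so these counts describe it only. The ER-resident members HSPA5 (0.03), HSP90B1 (-0.0070), DNAJB11 (0.09) and DNAJC3 (0.03), classical targets of the same response, did not pass the test.

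**Figure D4:**
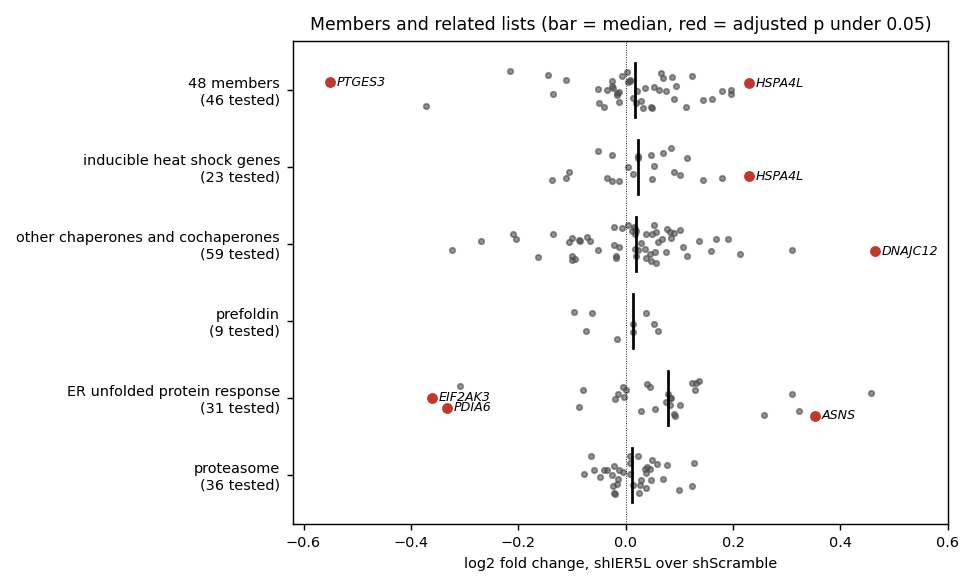
Log2 fold changes (x axis) of the members and of the 5 related lists (rows); each point is a gene, black bars are medians and red points have an adjusted p under 0.05. The members' median lies at 0.017, and the genes that passed are PTGES3, HSPA4L, DNAJC12, ASNS, EIF2AK3 and PDIA6.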

How the data were processed

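RNA from 4 shScramble and 4 shIER5L samples of PC3 cells was sequenced as paired reads. Per the file headers and the submitters' processing notes, the authors aligned reads to hg38 with STAR 2.7.5c, removed duplicates with SAMtools 1.15 and made raw counts per Ensembl gene with featureCounts 2.0.3 over exons. Strand was not used and the reads of a pair were counted singly, so 65.3% to 66.1% of the counts from 1 to 20 were even. These deposited counts were used without change. The annotated length per gene in the deposited table is in another unit, bases. Ribosomal RNA depletion is given as the library kit in the paper, whereas the labels name an mRNA kit. The 37 mitochondrial genes held no counts.

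Symbols came from GENCODE 44 (56948 of 58051 genes). Genes were filtered with filterByExpr, scaled by TMM and tested with the edgeR 4.0.16 quasi-likelihood test (R 4.3.3) on condition alone, with Benjamini-Hochberg adjustment over 16959 genes. Standard errors are the log2 fold change over the root of its F. CPM and RPKM are TMM-scaled. DEGs had an adjusted p under 0.05 and a log2 fold change of 0.5 or more in size. Counts limit the precision of single values, and intervals cover the spread between samples. Full values were given for members that passed, members without overlap, 18 listed by name and the highest and lowest per length of each role. Members and lists were chosen with earlier results of these data known. Alternatives were RLE and upper quartile scaling, no filter, at least 1 CPM in 4 samples, DESeq2 1.42.0, limma 3.58.1 voom, a replicate block and each sample left out. Halved counts and removal of each sample's GC trend (span 0.3) were added after the data were seen. On simulated counts for 16959 genes with 200 changed by 1 on the log2 scale, edgeR recovered 152 and made 11 false calls. The members' log2 fold changes, from -0.55 to 0.23, were all smaller in size than 1, so these figures do not give the power for them. Sequence searches used Python 3.11.15. Some marker genes are not reported here.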

Additional observations from a re-analysis of the deposited data

Results flagged for a closer look

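In 8 of 92 groups of 4 samples (8.70%; chance flags about 1 in 20), 1 sample lay far from the other 3 by Dixon's ratio of its gap to the range. Of these 8 samples, 4 were shScramble replicate 1 and the highest of their condition: HSP90AB1 at 1114 CPM with the next sample at 996 CPM, HSPE1 at 228 CPM with the next at 212 CPM, DNAJB11 at 96.2 CPM with the next at 89.0 CPM, and CCT6A at 1174 CPM with the next at 1083 CPM. In shIER5L cells replicate 1 was far above the others for AHSA1, at 674 CPM with the next at 646 CPM, and for STIP1, at 774 CPM with the next at 717 CPM. Replicate 2 of that condition was far below the others for HSPA9, at 965 CPM with the next at 1046 CPM, and for DNAJA1, at 960 CPM with the next at 1036 CPM. None of these 8 genes passed the test in the comparison of the conditions, and none did with any 1 sample left out. The cause was not tested.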

How the results depend on the processing

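The fall of PTGES3 (-0.60 to -0.50 on the log2 scale) and the rise of HSPA4L (0.17 to 0.26) kept their direction and an adjusted p under 0.05 in all 17 alternatives. The number of members that passed was 2 as reported, 4 with the filter of at least 1 CPM in 4 samples, and 5 with both DESeq2 and the removal of each sample's GC trend. The members added were BAG1 and BAG5 in all 3 of these fits, BAG2 with DESeq2 and STUB1 with the GC trend removed. The cause was not tested. BAG1 also passed with upper quartile scaling, STUB1 with no filter, and BAG2 without shIER5L replicate 2. PTGES3 was the only member that was a DEG in every alternative. The members' median log2 fold change lay between -0.00065 and 0.040. In the related lists 5 genes passed as reported, 11 with no filter, 10 with DESeq2 and 12 with the GC trend removed. Over all genes 666 passed, 1370 with the GC trend removed, and 305 to 756 with a sample left out; 305 was without shScramble replicate 3, 341 and 434 without replicates 2 and 4, and 358 without shIER5L replicate 3. DEGs numbered 134, and 86 to 135 with a sample left out, 86 being without shScramble replicate 3. Members with an exact match to the heat shock element letters numbered 3 with 3 units and 11 with 2. IER5L passed in 5 of the 8 fits that left a sample out. The sign of HSF1 turned among these fits (-0.15 to 0.04), and signs of other members near 0 turned too.

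Deviations of samples with the same replicate number had correlations of -0.05, 0.10, -0.04 and 0.14 for replicates 1 to 4. The highest correlations with another number were 0.07, 0.03, 0.11 and 0.04. The same number thus gave the higher value in replicates 2 and 4 only, and these values do not settle whether the numbers pair the samples. With a replicate block, 2 members and 8 genes of the related lists passed.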
